A study of Mus musculus with 18 samples.

Results

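The genes described here are the interleukins and interleukin receptors of the mouse uterus, taken as every gene of the deposited expression table whose symbol starts with Il and a digit. The table listed 85 such genes among 25791, and 40 of them reached at least 1 FPKM (fragments per kilobase of transcript, scaled to the mapped fragments of the library) in at least 3 of 18 libraries. These 40 were tested among 13898 genes that passed the same filter, and the other 45 were not tested. A symbol is not a function: Il4i1 encodes an amino acid oxidase and Il16 a chemoattractant outside the interleukin families, and both entered through their names.

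The RNA came from uterine cross sections of mice aged 12 weeks on a mixed 129Sv and C57BL/6 background, in 6 groups of 3 libraries. KO mice lacked Tsc2 in the uterus only, per the labels, and WT mice carried it. The 3 hormone states of each genotype were E2 (ovaries removed at 4 weeks, then a pellet of 0.5 mg 17β-estradiol with release over 90 days, carried for 8 weeks), intact (ovaries in place) and ovx (ovaries removed at 4 weeks, no hormone). The driver behind the uterine deletion, the estrous stage of intact mice and the number of animals behind the libraries are not stated, and p-values therefore speak of the spread among libraries, which may be technical.

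Interleukins are secreted proteins through which leukocytes, epithelium and stroma signal to each other. Ligands of the IL-1 family bind receptors whose inner domain recruits MyD88 and IRAK kinases and releases NF-κB. IL-17 receptors signal through the adaptor encoded by Traf3ip2. Most other interleukin receptors are paired chains that recruit JAK kinases and STAT factors, often with a shared chain such as gp130 or the common γ chain. In the mouse uterus estrogen draws leukocytes into the tissue, and gp130 is required for implantation. TSC2 restrains the growth kinase complex mTORC1.

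Library sums of FPKM ran from 216032 to 591668, and read depth is unknown. Tsc2 was lower in KO libraries by a mean log2 difference of -0.18 over the 3 states (exact stratified permutation test, two-sided, p = 0.00275, with 0.00025 the smallest p that 8000 arrangements can give), while its adjusted p in the fit over all genes was 0.158. All 7 uterine identity markers passed the filter, but WT intact replicate 4 stood apart, with Hoxa10 at 0.474 FPKM against 28.4 and 10.9 in the other WT intact libraries, and KO ovx replicate 4 held S100a8, a neutrophil gene, at 122 FPKM against 0.971 and 1.08 in its group. The labels name no batch, so the 18 were sorted by ratios of their lowest values into 4 sets, called batches 1 to 4 here. The number 4 was chosen. No batch held intact and ovariectomized libraries together, so intact against ovx and batch cannot be told apart.

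Of the 85 genes, 7 were at or above 1 FPKM in every library, and each of the 7 encodes a receptor chain: Il6st, Il4ra, Il10rb, Il11ra1, Il1r1, Il13ra1 and Il17ra. A further 33 were below 1 FPKM in every library, 5 reached it in 1 library and 7 in 2, which left them just outside the filter, and Il15, Il17a and Il7r reached it in 3 and were just inside. Il7r passed through KO E2 libraries alone, 6 genes (Il10ra, Il17a, Il1r2, Il21r, Il4i1 and Il7r) passed through E2 libraries alone and Il15 through ovx libraries alone, so the filter favoured their calls in that direction and counts that hold them. By role, 9 of 11 ligands and antagonists of the IL-1 family passed, against 0 of 4 gp130 cytokines, 0 of 7 IL-10 family ligands and 0 of 6 genes of the IL-12 family. Receptors passed more widely, with 5 of 5 IL-17 receptors, 7 of 10 common γ and type 2 receptors, 5 of 9 IL-1 receptors, 4 of 6 gp130 receptors and 4 of 7 IL-10 family receptors. Over all 18 libraries the highest mean levels were those of Il6st at 16.8 FPKM, Il1b at 15.5 FPKM and Il4ra at 12.1 FPKM, but the mean of Il1b was 6.79 FPKM without KO E2 replicate 1, below Il10rb at 8.84 FPKM. Together the 85 genes made up 0.114%, 0.0729% and 0.0602% of all FPKM in the KO E2 libraries and between 0.0276% and 0.0566% in each of the other 15.

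**Figure D1:**
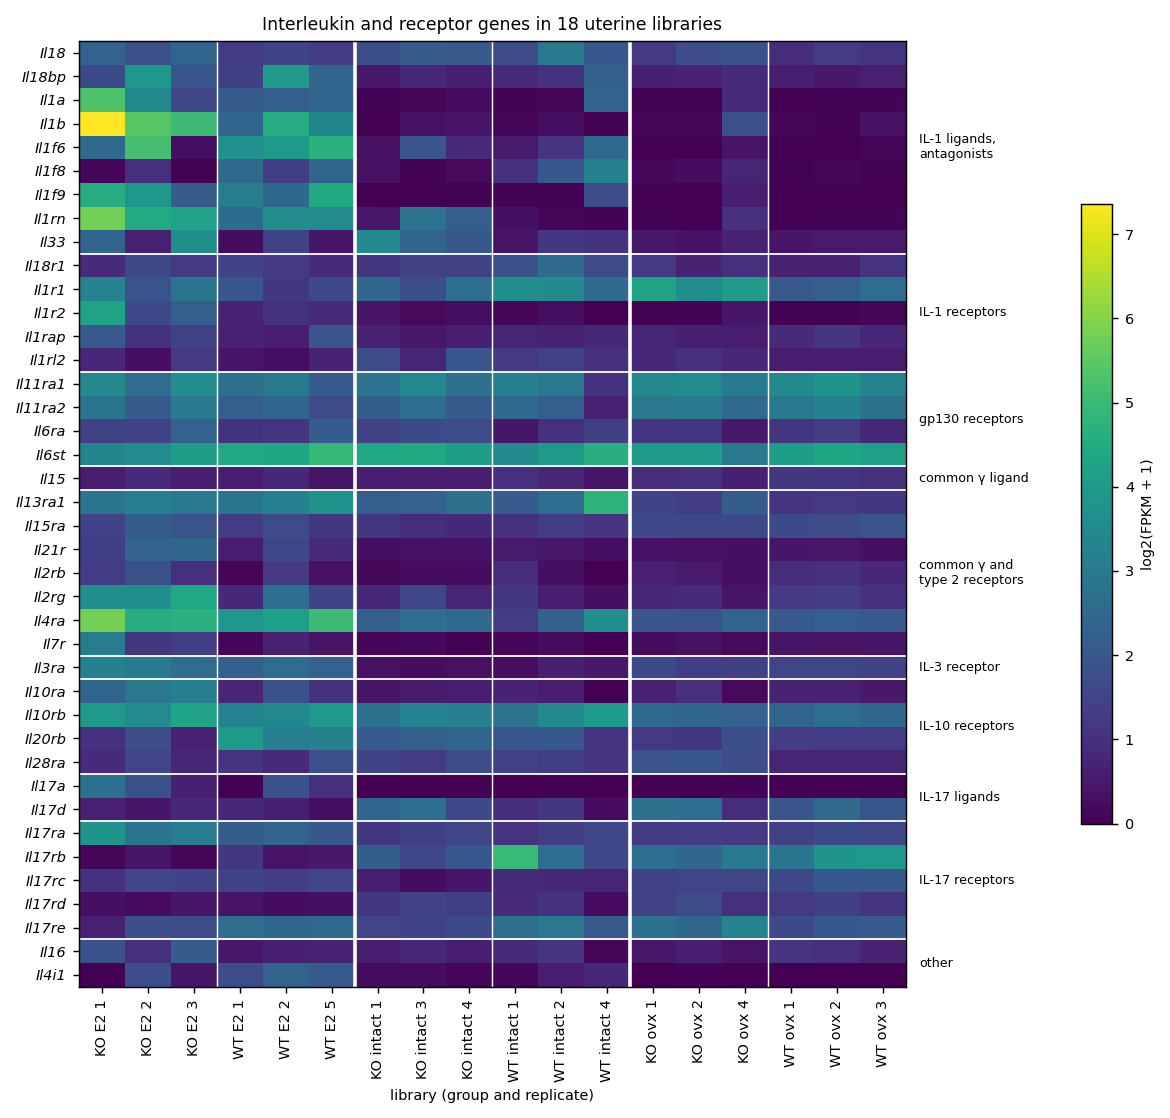
Level of the 40 genes that passed the filter, as log2(FPKM + 1) by colour, with a row per gene ordered by role and a column per library. The brightest cell is Il1b in KO E2 replicate 1 (163 FPKM), and the row of Il4ra is brighter in the E2 libraries than in the others.

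Estradiol was compared with no hormone in each genotype. Here and below, a difference is in log2(FPKM + 1) with its SE, a scale that understates changes of low genes, and a gene was called at an adjusted p below 0.05 in limma with Benjamini-Hochberg adjustment over all 13898 genes. In KO mice 21 of the 40 tested genes rose and 6 fell, where 27.1% of all genes tested were called, 15.9% higher and 11.2% lower. In WT mice 14 rose and 5 fell, 47.5% of the 40, where 47.5% of all genes were called, 32.3% higher and 15.2% lower. The WT members were thus called as often as genes at large. The members' log2 difference (E2 minus ovx) had a median of 0.87 in KO and 0.50 in WT, against 0.070 and 0.24 over all genes tested. In bulk tissue, fewer cells of a type and less RNA per cell cannot be told apart. Some leukocyte markers rose as well in KO: 9 of 10 neutrophil, 9 of 9 macrophage and 5 of 5 T cell markers. In WT 4 of 10 neutrophil, 5 of 9 macrophage and 1 of 5 T cell markers rose. The WT neutrophil count was near the 32.3% of all genes called higher there, and the WT T cell count was below it. Others did not: in WT the mast cell markers Mcpt4 (-1.45 ± 0.33), Cma1 (-1.08 ± 0.34) and Tpsb2 (-1.19 ± 0.44) fell, while Kit rose (1.24 ± 0.41). The eosinophil markers Ear1 (-0.81), Ear2 (-0.80) and Prg2 (-0.63) were below 0 in WT and not called. Tissue markers moved too: in WT 7 of 8 epithelial and 4 of 4 squamous markers rose while 4 of 6 blood endothelial and 3 of 7 stromal markers fell. In KO 2 of 4 squamous and 2 of 7 stromal markers rose, and no epithelial marker was called. The summed level of the neutrophil markers other than Ltf, which is listed at 0 in WT E2 replicates 1 and 5, was 1401 to 14439 FPKM in KO E2 and 19.8 to 230.4 FPKM in KO ovx, and 184 to 719 FPKM in WT E2 and 13.6 to 15.7 FPKM in WT ovx. Their part in the interleukin results was not tested. Batch 3 held 1 E2 library of each genotype and batch 4 held 1 WT ovx library, so counts of called genes within a batch are not given. Without KO ovx replicate 4, which stood apart, 23 genes were called in KO.

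Among the IL-1 ligands and antagonists, 7 of 9 tested genes were higher under estradiol in each genotype, with a median log2 difference of 2.52 in KO and 2.21 in WT. Il1b encodes IL-1β, a secreted fever cytokine made as a precursor that caspase-1 cuts. Il1b stood at 163, 42.9 and 32.1 FPKM in KO E2 libraries and at 0.0929, 0.0804 and 2.57 FPKM in KO ovx libraries. In WT it stood at 4.23, 22.8 and 9.4 FPKM in E2 libraries and at 0.0816, 0.0472 and 0.254 FPKM in ovx libraries. The E2 and ovx libraries did not overlap in either genotype, and KO ovx replicate 4 was the highest of the 6 ovx libraries. The log2 difference was 5.26 ± 0.59 in KO (adjusted p = 1.71e-05) and 3.28 ± 0.59 in WT (adjusted p = 0.000562). All intact libraries were low, at 0.0154, 0.269 and 0.296 FPKM in KO and 0.0687, 0.204 and 0.0351 FPKM in WT.

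Il1a and Il1rn, its neighbours in function, rose with Il1b. Il1rn encodes the receptor antagonist that occupies the IL-1 receptor without signalling. Il1rn was at 55, 21.7 and 18.3 FPKM in KO E2 and 0.0271, 0.0155 and 1.08 FPKM in KO ovx libraries, and at 5.08, 11.4 and 10.6 FPKM in WT E2 and 0.00807, 0.0556 and 0.0545 FPKM in WT ovx libraries. Again no E2 library overlapped an ovx library of its genotype (4.49 ± 0.51 in KO, adjusted p = 2.01e-05, and 3.20 ± 0.51 in WT, adjusted p = 0.000279). Il1a encodes IL-1α, which is active without cutting. It was at 38.9, 10.4 and 1.93 FPKM in KO E2 and 0.0401, 0.0292 and 0.85 FPKM in KO ovx libraries, and at 3.33, 3.6 and 4.31 FPKM in WT E2 and 0, 0.0271 and 0.0417 FPKM in WT ovx libraries. The KO E2 libraries spread widely in Il1a while the WT E2 libraries lay close together, inside the KO E2 range (3.13 ± 0.71 in KO, adjusted p = 0.00484, and 2.21 ± 0.71 in WT, adjusted p = 0.0189). In the intact state Il1a was at 0.0569, 0.0911 and 0.173 FPKM in KO and 0.0515, 0.0804 and 4.21 FPKM in WT, with WT intact replicate 4 at the level of the WT E2 libraries.

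The bases before the start sites of Il1b, Il1a and Il1rn, which rose together, are shown with those of Il6 because each holds letters known from binding sites of inflammatory factors. The sequences are RefSeq promoters on GRCm38.p6, 250 bases before the start, 5′ to 3′ on the gene's strand. Capitals mark matches on either strand to an NF-κB motif (GGG and TTTCC with 2 bases between), a C/EBP motif (TTNNGNAAT), an AP-1 motif (TGANTCA) or the TATA letters (TATAAA), and no 2 of the marked matches overlap. The windows are chr2:129371140-129371389 on the minus strand for Il1b, chr2:129309973-129310222 on the minus strand for Il1a, chr2:24345121-24345370 on the plus strand for the third of 3 start sites of Il1rn, and chr5:30012864-30013113 on the plus strand for Il6.
Il1b: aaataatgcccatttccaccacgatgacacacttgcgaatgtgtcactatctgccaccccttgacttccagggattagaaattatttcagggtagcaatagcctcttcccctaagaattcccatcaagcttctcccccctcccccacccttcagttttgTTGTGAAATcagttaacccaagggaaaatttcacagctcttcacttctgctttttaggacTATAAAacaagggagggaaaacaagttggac
Il1a: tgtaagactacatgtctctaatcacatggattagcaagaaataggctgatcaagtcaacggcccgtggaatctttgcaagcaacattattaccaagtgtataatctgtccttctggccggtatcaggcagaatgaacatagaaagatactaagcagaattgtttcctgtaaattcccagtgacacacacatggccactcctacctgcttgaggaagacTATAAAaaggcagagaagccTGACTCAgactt
Il1rn: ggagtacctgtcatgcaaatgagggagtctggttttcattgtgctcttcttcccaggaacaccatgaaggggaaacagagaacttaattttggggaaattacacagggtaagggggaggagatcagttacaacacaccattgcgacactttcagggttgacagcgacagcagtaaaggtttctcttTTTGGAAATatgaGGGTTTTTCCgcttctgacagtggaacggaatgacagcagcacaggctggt
Il6: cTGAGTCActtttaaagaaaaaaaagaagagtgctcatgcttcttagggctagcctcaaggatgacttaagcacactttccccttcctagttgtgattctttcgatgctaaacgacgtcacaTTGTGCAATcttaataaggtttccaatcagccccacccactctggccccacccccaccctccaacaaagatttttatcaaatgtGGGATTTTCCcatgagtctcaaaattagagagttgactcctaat
Il1b holds a C/EBP match 91 bases before its start and TATA letters 31 bases before it. Il1a holds TATA letters at 32 and an AP-1 match at 12 bases. Il1rn holds C/EBP and NF-κB matches at 64 and 51 bases, and Il6 holds AP-1, C/EBP and NF-κB matches at 249, 128 and 44 bases. The start site of Il1rn and the gene Il6 were picked after their matches were seen.

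All 85 genes matched RefSeq symbols, 3 of them through an older symbol, and promoters were given for 68 genes, 83 start sites in all, in windows from 250 bases before to 50 after the start. The NF-κB letters were in 9.64% of these 83 windows and in 1.63% of all 32851 windows of that length, and the AP-1 letters in 16.9% and 7.81%. The C/EBP letters were in 19.3% of member windows and 11.5% of all, and a STAT motif (TTCNNNGAA) in 12.0% and 8.30%. A full estrogen response element (GGTCA and TGACC with 3 bases between) was in 0 of the 83 windows and in 0.07% of all. These shares are descriptions of the letters, and a match is not a site that was shown to be bound.

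The IL-36 genes, named Il1f6, Il1f8 and Il1f9 in the table for IL-36α, IL-36β and IL-36γ, encode epithelial alarm cytokines. Il1f9 was at 22.5, 14 and 3.31 FPKM in KO E2 and 0.0198, 0.0113 and 0.532 FPKM in KO ovx libraries, and at 7.75, 4.49 and 21.3 FPKM in WT E2 and 0, 0.00499 and 0.0188 FPKM in WT ovx libraries (3.30 ± 0.58 in KO, adjusted p = 0.000828, and 3.34 ± 0.58 in WT, adjusted p = 0.000484). Both genotypes thus went the same way, and its intact libraries stayed between 0 and 0.0224 FPKM except for 2.33 FPKM in WT intact replicate 4. Il1f6 was at 4.78, 35.5 and 0.208 FPKM in KO E2 and 0.0132, 0.0114 and 0.304 FPKM in KO ovx libraries, and at 12.2, 15.1 and 24.9 FPKM in WT E2 and 0.00791, 0 and 0.1 FPKM in WT ovx libraries (2.52 ± 0.85 in KO, adjusted p = 0.0395, and 4.09 ± 0.85 in WT, adjusted p = 0.00154). The KO E2 libraries of Il1f6 were scattered, with replicate 3 below KO ovx replicate 4. The call of Il1f6 in KO ended without KO E2 replicate 1 or 2 or without any KO ovx library (adjusted p up to 0.158). In the intact state Il1f6 was at 0.245, 2.87 and 0.838 FPKM in KO and 0.451, 1.16 and 4.82 FPKM in WT.

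Il1f8 was the member of the trio that separated the genotypes. It was at 0.0717, 1.02 and 0.0253 FPKM in KO E2 and 4.79, 1.59 and 4.21 FPKM in WT E2 libraries, and at 0.253, 0.0268 and 0.134 FPKM in KO intact and 1.08, 3.07 and 8.47 FPKM in WT intact libraries. In the ovx state it was at 0.113, 0.193 and 0.712 FPKM in KO and 0.038, 0.0988 and 0.0304 FPKM in WT. The KO libraries were below all WT libraries with estradiol and with ovaries, and above them, at under 1 FPKM, without hormone. Il1f8 rose with estradiol in WT (2.02 ± 0.43, adjusted p = 0.00188), and its difference in KO was -0.013 ± 0.43 (adjusted p = 0.984).

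Il18bp, Il33 and Il18 complete the ligands and antagonists that passed. Il18bp, a soluble trap for IL-18, was at 2.16, 13.5 and 2.84 FPKM in KO E2 and 0.562, 0.623 and 0.825 FPKM in KO ovx libraries, and at 1.62, 15.9 and 4.25 FPKM in WT E2 and 0.536, 0.428 and 0.605 FPKM in WT ovx libraries. Replicate 2 was the highest of each E2 group, both of them in batch 4 (1.75 ± 0.59 in KO, adjusted p = 0.0403, and 2.02 ± 0.59 in WT, adjusted p = 0.0122). Its intact libraries were at 0.421, 0.812 and 0.529 FPKM in KO and 0.82, 1.11 and 3.78 FPKM in WT. Il33, an alarm cytokine held in the nucleus of barrier cells, was at 4.15, 0.594 and 11.6 FPKM in KO E2 and 0.386, 0.291 and 0.593 FPKM in KO ovx libraries (1.73 ± 0.56, adjusted p = 0.0327). In WT the values were 0.19, 1.68 and 0.373 FPKM with E2 and 0.372, 0.432 and 0.453 FPKM without (0.21 ± 0.56, adjusted p = 0.781). KO intact libraries held Il33 at 10.3, 4.25 and 3.11 FPKM against 0.3, 1.29 and 1.12 FPKM in WT intact libraries, groups that did not overlap but missed the threshold (1.76 ± 0.56, adjusted p = 0.11). Il18 had 0.55 ± 0.27 in KO (adjusted p = 0.143) and 0.25 ± 0.27 in WT (adjusted p = 0.471). The calls of Il18bp ended without KO E2 replicate 2 or any KO ovx library (adjusted p up to 0.169) and without WT E2 replicate 2 (0.065). That of Il33 ended without KO E2 replicate 1 or 3 or KO ovx replicate 1 or 2 (up to 0.14), and that of Il1a in WT without WT E2 replicate 5 or WT ovx replicate 1 (up to 0.0549).

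**Figure D2:**
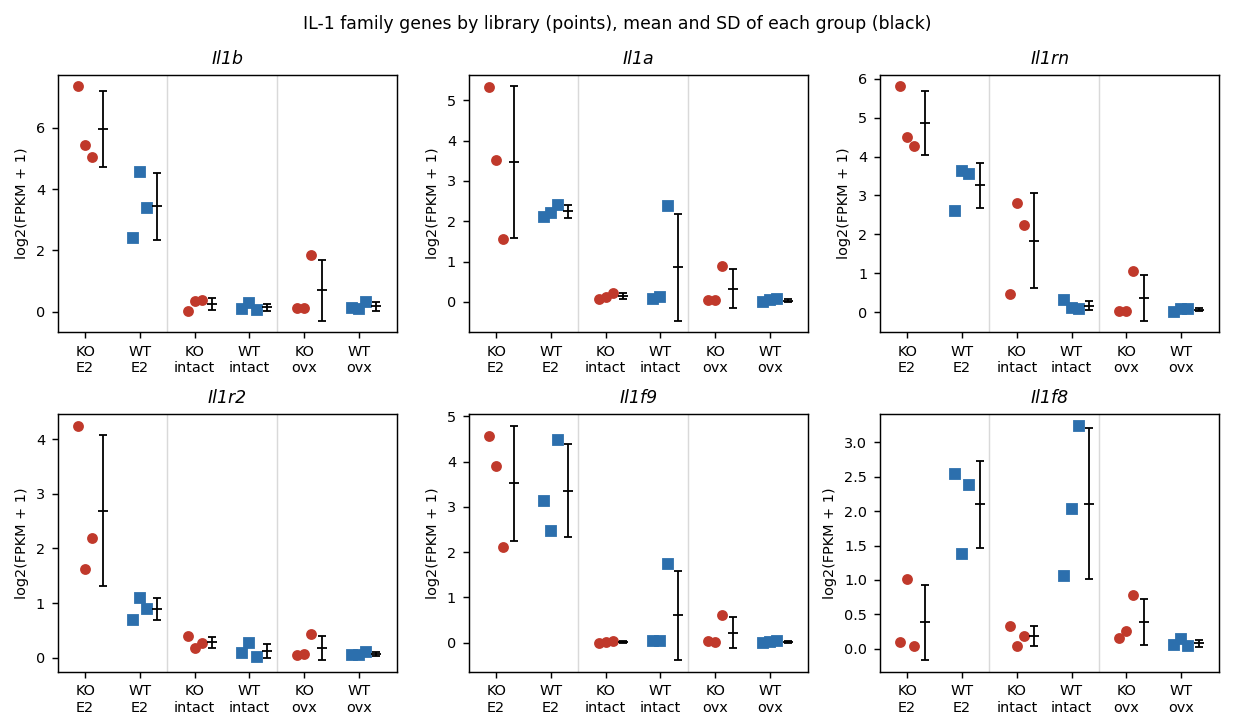
Level of 6 IL-1 family genes in each library, as log2(FPKM + 1), for KO (red circles) and WT (blue squares) in the E2, intact and ovx states. Black marks are the mean and SD of each group of 3. Il1b and Il1rn are high in both E2 groups and highest in KO E2, and every KO E2 and KO intact library of Il1f8 lies below the WT libraries of the same state.

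IL-1 receptors did not follow their ligands as a group, with 2 of 5 tested genes higher and 1 lower under estradiol in KO and none past the threshold in WT. Il1r1 encodes the signalling receptor for IL-1α and IL-1β. Il1r1 was at 8.63, 2.75 and 6.09 FPKM in KO E2 and 18.7, 11.1 and 15.5 FPKM in KO ovx libraries, and fell (-1.31 ± 0.37, adjusted p = 0.0163). In WT it was at 2.89, 1.3 and 2.09 FPKM in E2 and 3.16, 3.78 and 5.29 FPKM in ovx libraries (-0.73 ± 0.37, adjusted p = 0.116). Il1r2 encodes the decoy receptor that binds IL-1 without signalling, and neutrophils are a known source. It was at 18, 2.08 and 3.59 FPKM in KO E2 and 0.031, 0.0468 and 0.357 FPKM in KO ovx libraries. The difference was 2.51 ± 0.43 (adjusted p = 0.00181 with no filter, since Il1r2 passed through E2 libraries alone). In WT Il1r2 was at 0.62, 1.13 and 0.865 FPKM in E2 and 0.0323, 0.0303 and 0.0736 FPKM in ovx libraries (0.83 ± 0.43, adjusted p = 0.126). All intact libraries of Il1r2 were under 0.32 FPKM, at 0.314, 0.137 and 0.205 FPKM in KO and 0.062, 0.206 and 0.0157 FPKM in WT. Il1rap, the accessory chain shared by IL-1, IL-33 and IL-36 receptors, rose in KO (0.86 ± 0.29, adjusted p = 0.0407), but not without KO E2 replicate 1 or 3 or any KO ovx library (adjusted p up to 0.179). The fall of Il1r1 in KO was lost without KO E2 replicate 2 or KO ovx replicate 1 (up to 0.0718). Il18r1 and Il1rl2, receptors of IL-18 and IL-36, had differences between -0.13 and 0.40 over both genotypes, past no threshold.

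Of 7 tested receptors of the common γ chain and type 2 cytokines, 6 rose in KO, where 15.9% of all genes were called higher. In WT 2 of 7 rose, near the 32.3% of all genes called higher there. Il7r and Il21r, which rose in KO, passed the filter through E2 libraries alone, which favoured their calls. The median log2 difference of the 7 was 1.65 in KO, which is the value of Il7r, and 0.48 in WT. Il4ra encodes the chain that binds IL-4 and serves IL-13 as well. Il4ra was at 56, 23.1 and 24.8 FPKM in KO E2 and 2.83, 2.66 and 4.21 FPKM in KO ovx libraries, and at 13.7, 17 and 31.9 FPKM in WT E2 and 3.12, 3.57 and 3.14 FPKM in WT ovx libraries (2.97 ± 0.48 in KO, adjusted p = 0.000407, and 2.26 ± 0.48 in WT, adjusted p = 0.00171). Each E2 library was above each ovx library. In the intact state Il4ra was at 3.7, 5.24 and 4.85 FPKM in KO and 1.44, 3.75 and 12.1 FPKM in WT. Its partner Il13ra1 was at 6.32, 8.07 and 6.88 FPKM in KO E2 and 1.85, 1.5 and 3.5 FPKM in KO ovx libraries, and at 6.26, 8.37 and 12.8 FPKM in WT E2 and 1.22, 1.33 and 1.26 FPKM in WT ovx libraries. It rose in both genotypes (1.34 ± 0.48 in KO, adjusted p = 0.0483, and 2.11 ± 0.48 in WT, adjusted p = 0.00256), and the call in KO ended without any KO E2 library or without KO ovx replicate 1 or 2 (adjusted p up to 0.153). Intact levels of Il13ra1 were 3.57, 3.96 and 5.57 FPKM in KO and 3.4, 5.2 and 25.9 FPKM in WT, where replicate 4 held the highest value of all 18 libraries.

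Il2rg, which encodes the common γ chain carried by lymphocytes and myeloid cells, was at 11.1, 11.8 and 19.7 FPKM in KO E2 and 0.796, 0.853 and 0.365 FPKM in KO ovx libraries (3.16 ± 0.38, adjusted p = 3.1e-05). In WT it was at 0.779, 5.42 and 1.87 FPKM in E2 and 1.31, 1.5 and 1.07 FPKM in ovx libraries (0.48 ± 0.38, adjusted p = 0.306), and in intact libraries at 0.801, 1.93 and 0.709 FPKM in KO and 1.27, 0.527 and 0.235 FPKM in WT. The KO E2 libraries were thus above all other 15, and WT E2 overlapped WT ovx. Of the chains that pair with the γ chain, Il21r (1.72 ± 0.26) and Il2rb (0.88 ± 0.28, adjusted p = 0.0315) rose in KO. Il21r passed the filter through E2 libraries alone and had an adjusted p of 0.000576 with no filter. Il7r, which passed the filter through KO E2 alone and had an adjusted p of 0.00568 with no filter, was at 7.78, 1.3 and 1.59 FPKM in KO E2 and 0.176, 0.261 and 0.139 FPKM in KO ovx libraries. Il2rb lost its call without KO E2 replicate 1 or 2 or any KO ovx library (adjusted p up to 0.117). Il15, the only cytokine of this class that passed, passed through ovx libraries alone and fell in WT. Its levels were 0.509, 0.803 and 0.326 FPKM with E2 and 1.26, 1.16 and 0.986 FPKM without (-0.48 ± 0.17, adjusted p = 0.0285 with no filter). Il15 lost its call without WT E2 replicate 1 or 5 or WT ovx replicate 1 or 2 (up to 0.113). Its receptor chain Il15ra had 0.23 ± 0.18 in KO (adjusted p = 0.342) and -0.37 ± 0.18 in WT (adjusted p = 0.0972).

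Il3ra, the IL-3 binding chain, had little spread within groups. It was at 8.28, 7.22 and 5.21 FPKM in KO E2 and 2.16, 1.56 and 1.63 FPKM in KO ovx libraries, and at 3.92, 5.25 and 3.95 FPKM in WT E2 and 1.93, 1.92 and 1.76 FPKM in WT ovx libraries, with no overlap (1.49 ± 0.16 in KO, adjusted p = 1.31e-05, and 0.90 ± 0.16 in WT, adjusted p = 0.000556). Its lowest levels were in intact libraries, at 0.247, 0.195 and 0.262 FPKM in KO and 0.208, 0.565 and 0.406 FPKM in WT. Il3, the ligand, did not exceed 0.0116 FPKM in any library.

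Among IL-10 family receptors, Il10ra and Il10rb rose in KO and Il28ra fell, while Il10rb and Il20rb rose in WT. Il10ra binds IL-10 and is carried by leukocytes. It was at 4.31, 6.57 and 8.01 FPKM in KO E2 and 0.584, 0.983 and 0.143 FPKM in KO ovx libraries. The difference was 2.22 ± 0.27 (adjusted p = 0.000144 with no filter, since Il10ra passed through E2 libraries alone). In WT Il10ra was at 0.74, 2.54 and 1.11 FPKM in E2 and 0.668, 0.6 and 0.405 FPKM in ovx libraries (0.60 ± 0.27, adjusted p = 0.083). All intact libraries held it under 1 FPKM. The shared chain Il10rb was at 14.4, 10.6 and 19.3 FPKM in KO E2 and 4.77, 4.43 and 3.93 FPKM in KO ovx libraries, and at 8.91, 9.85 and 14.4 FPKM in WT E2 and 4.19, 5.29 and 4.55 FPKM in WT ovx libraries (1.52 ± 0.29 in KO, adjusted p = 0.00139, and 1.06 ± 0.29 in WT, adjusted p = 0.00752). Its intact levels were 5.62, 9.07 and 8.15 FPKM in KO and 5.94, 10.3 and 15.4 FPKM in WT. Il20rb, a chain of the receptors for IL-19, IL-20 and IL-24 that epithelia carry, behaved otherwise. It was at 1.07, 2.31 and 0.657 FPKM in KO E2 and 1.31, 1.26 and 2.41 FPKM in KO ovx libraries (-0.22 ± 0.29, adjusted p = 0.611), and at 14.8, 8.08 and 8.18 FPKM in WT E2 and 1.52, 1.47 and 1.42 FPKM in WT ovx libraries (2.15 ± 0.29, adjusted p = 0.000126). The 3 WT E2 libraries were above the other 15, and the intact libraries lay at 3.18, 3.73 and 4.22 FPKM in KO and 2.92, 3.05 and 1.18 FPKM in WT. Il28ra, the interferon λ receptor, had 0.836, 1.92 and 0.73 FPKM in KO E2 and 2.71, 2.9 and 2.34 FPKM in KO ovx libraries (-0.79 ± 0.22, adjusted p = 0.0173), a call lost without KO E2 replicate 1 or 3 or KO ovx replicate 1 or 2 (adjusted p up to 0.0702).

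The IL-17 receptors split, with Il17ra higher and most others lower under estradiol. Il17ra is the chain shared by all IL-17 receptors. It was at 12.9, 6.14 and 7.48 FPKM in KO E2 and 1.38, 1.47 and 1.34 FPKM in KO ovx libraries (1.98 ± 0.20, adjusted p = 9.65e-06), and at 3.54, 4.06 and 3.02 FPKM in WT E2 and 1.74, 2.12 and 1.92 FPKM in WT ovx libraries (0.63 ± 0.20, adjusted p = 0.0202). The rise was larger in KO by a test given below, and the call in WT ended without WT E2 replicate 2 or WT ovx replicate 1 (adjusted p up to 0.0691), and under median-ratio scaling and quantile normalization. All 6 intact libraries of Il17ra lay between 1.15 and 1.95 FPKM. Il17rb, the chain that binds IL-25 and IL-17B, went the other way, with 0.077, 0.338 and 0.0885 FPKM in KO E2 and 5.45, 4.37 and 7.29 FPKM in KO ovx libraries and 1.22, 0.31 and 0.406 FPKM in WT E2 and 6.32, 12.9 and 14.2 FPKM in WT ovx libraries (-2.50 ± 0.58 in KO, adjusted p = 0.00538, and -2.86 ± 0.58 in WT, adjusted p = 0.00124). In the intact state Il17rb was at 3.5, 1.95 and 3.01 FPKM in KO and 30.0, 5.23 and 2.08 FPKM in WT, with WT intact replicate 1 the highest of 18.

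Il17rd, an inhibitor of growth factor signalling as well as an IL-17 receptor, fell in both genotypes (-1.06 ± 0.20 in KO, adjusted p = 0.00145, and -0.93 ± 0.20 in WT, adjusted p = 0.00192). Il17rc, the partner of Il17ra for IL-17A, fell in WT (-0.45 ± 0.15, adjusted p = 0.0273), which ended without WT E2 replicate 1 or 2 or WT ovx replicate 2 or 3 (adjusted p up to 0.104), and the gene overlaps Creld1 in the table. Il17re, which receives IL-17C on epithelium, was at 0.612, 2.38 and 2.29 FPKM in KO E2 and 5.57, 4.53 and 8.79 FPKM in KO ovx libraries and fell (-1.44 ± 0.28, adjusted p = 0.00194). WT E2 libraries were above WT ovx libraries, at 5.22, 4.49 and 4.68 FPKM in E2 and 2.1, 3.06 and 3.31 FPKM in ovx libraries (0.61 ± 0.28, adjusted p = 0.0875). Of the ligands, Il17a was listed at 0 in all 6 intact libraries and in 5 of 6 ovx libraries, with 0, 0 and 0.0555 FPKM in KO ovx. It reached 5.67, 2.55 and 0.557 FPKM in KO E2 (adjusted p = 0.0148 with no filter, since it passed through E2 libraries alone) and 0.0229, 2.58 and 0.988 FPKM in WT E2 (adjusted p = 0.0754, not called). Il17d fell in both genotypes, with 0.59, 0.373 and 0.783 FPKM in KO E2 and 5.75, 5.25 and 0.949 FPKM in KO ovx libraries and 0.773, 0.558 and 0.202 FPKM in WT E2 and 2.84, 4.88 and 2.93 FPKM in WT ovx libraries (-1.47 ± 0.40 in KO, adjusted p = 0.0149, and -1.58 ± 0.40 in WT, adjusted p = 0.00553), and in KO not without KO ovx replicate 1 or 2 (up to 0.0807).

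None of the 4 tested gp130 receptors passed the threshold under estradiol in either genotype. Il6st, which encodes gp130, had the highest mean level of the 85 genes. It was at 9.15, 10.8 and 16 FPKM in KO E2 and 15.5, 15.7 and 6.64 FPKM in KO ovx libraries, and at 19.7, 19.4 and 29 FPKM in WT E2 and 16.6, 19.6 and 16.8 FPKM in WT ovx libraries (-0.015 ± 0.33 in KO, adjusted p = 0.977, and 0.32 ± 0.33 in WT, adjusted p = 0.432). Intact libraries held 20.4, 21.3 and 16.4 FPKM in KO and 10.2, 15.3 and 23.5 FPKM in WT. Il11ra1, the IL-11 receptor needed for decidualization in mice, was at 9.97, 5.25 and 11.5 FPKM in KO E2 and 9.63, 10.8 and 6.96 FPKM in KO ovx libraries, and at 5.61, 6.81 and 3.36 FPKM in WT E2 and 10.2, 12.9 and 9.05 FPKM in WT ovx libraries (-0.072 ± 0.45 in KO, adjusted p = 0.92, and -0.93 ± 0.45 in WT, adjusted p = 0.0978). Its intact values were 6.02, 9.74 and 5.72 FPKM in KO and 8.33, 6.9 and 1.11 FPKM in WT. The near-identical copy Il11ra2 held a ratio of Il11ra1 to Il11ra2 between 1.46 and 1.90 in all 18 libraries, so the split of reads between them is uncertain. Il11ra2 stood at 6.25, 3.32 and 7.39 FPKM in KO E2, 6.51, 7.23 and 4.75 FPKM in KO ovx, 3.56, 4.33 and 2.19 FPKM in WT E2 and 6.86, 8.42 and 5.88 FPKM in WT ovx libraries (-0.15 ± 0.39 in KO, adjusted p = 0.808, and -0.91 ± 0.39 in WT, adjusted p = 0.0659). Its WT E2 libraries were all below its WT ovx libraries. Il6ra had 0.84 ± 0.32 in KO (adjusted p = 0.059) and 0.38 ± 0.32 in WT (adjusted p = 0.335). Outside the families, Il16 rose in KO (1.18 ± 0.26, adjusted p = 0.00459). Il4i1 was at 2.24, 4.11 and 3.27 FPKM in WT E2 and listed at 0 in all WT ovx libraries. Its adjusted p was 0.000537 with no filter, since it passed through E2 libraries alone. The locus of Il4i1 spans several other genes in the table, so its values are uncertain.

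**Figure D3:**
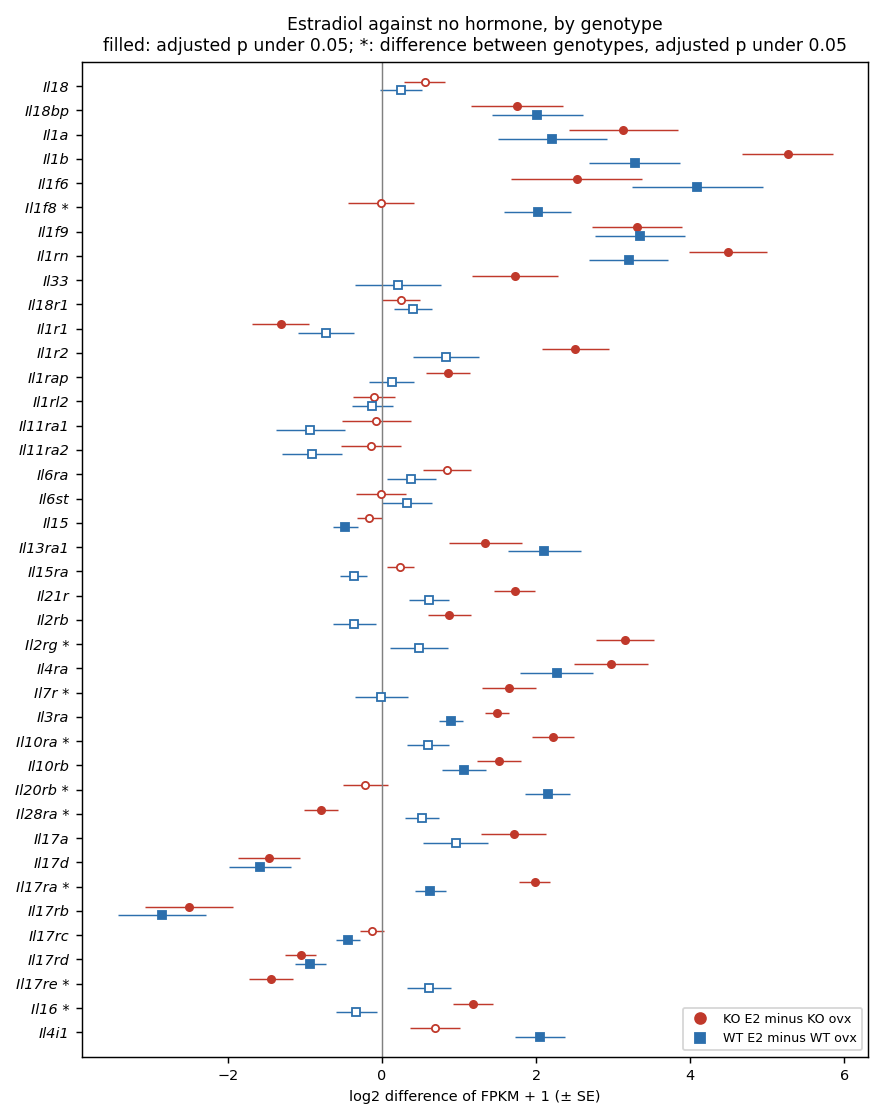
Log2 difference of FPKM + 1 between E2 and ovx libraries with its SE, for each of the 40 tested genes, in KO (red circles) and WT (blue squares). Filled points passed the adjusted threshold and an asterisk marks the 9 genes whose response differed between genotypes. Il1b lies farthest to the right at 5.26 in KO, and Il17rb farthest to the left at -2.86 in WT.

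Signalling genes downstream of the receptors were read from lists, where 15.9% of all genes tested were called higher in KO and 32.3% in WT. Traf3ip2, the IL-17 adaptor, fell in KO (-0.78 ± 0.17, adjusted p = 0.00317) and had -0.38 ± 0.17 in WT (adjusted p = 0.0694). Myd88 rose in both genotypes (1.35 ± 0.34 in KO and 1.04 ± 0.34 in WT). Irak3 rose in KO only, and Irak4, Tollip and Sigirr in WT only. Of 9 tested NF-κB genes, 8 rose under estradiol in KO and 7 in WT, with medians of 1.62 and 0.93, among them Tnfaip3, an NF-κB target that feeds back on it (2.94 ± 0.47 in KO and 1.55 ± 0.47 in WT). Of 12 genes induced by IL-6, IL-17 or IL-22 in other tissues, 11 rose in each genotype, with Saa3, a serum amyloid, at 23859, 1449.5 and 4780.5 FPKM in KO E2 and 5.05, 2.47 and 319.9 FPKM in KO ovx, and 106, 381 and 1309 FPKM in WT E2 and 1.68, 1.58 and 4.7 FPKM in WT ovx libraries. The neutrophil markers S100a8 and S100a9 are in this list too. Stat5a, which prolactin and common γ chain cytokines activate, rose in both genotypes (1.02 ± 0.28 in KO and 2.27 ± 0.28 in WT), and Stat3, which gp130 cytokines activate, rose in WT (1.10 ± 0.28) and had 0.42 ± 0.28 in KO (adjusted p = 0.292). In the inflammasome list 3 of 6 rose in each genotype: Nlrp3, Gsdmd and Aim2 in KO, and Nlrp3, Pycard and Casp1 in WT, where Casp1 encodes the protease that cuts the IL-1β precursor (1.73 ± 0.30). Of 7 genes known as targets of IL-4 and IL-13, 5 rose in KO and 2 in WT, the WT count being near the share over all genes. Arg1, arginase, was in both sets (4.77 ± 1.49 in KO and 6.61 ± 1.49 in WT). Among the 13 tested cytokine genes without an Il symbol, Csf2rb, the chain shared by the IL-3, IL-5 and GM-CSF receptors, rose in KO (3.44 ± 0.33, adjusted p = 7.17e-06) and had -0.30 ± 0.33 in WT (adjusted p = 0.485). Lif, the implantation cytokine of the uterus, rose in WT (2.18 ± 0.74, adjusted p = 0.0242).

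KO and WT were compared under estradiol to ask what loss of Tsc2 did to the interleukin genes at a fixed hormone supply. Of 40 tested genes 9 were higher and 4 lower in KO E2 than in WT E2 libraries, where 8.49% of all genes tested were called, 4.91% higher and 3.58% lower. The median of the 40 was 0.46, against -0.050 over all genes tested, and 29 of the 40 were above 0. The higher genes were Il1b, Il2rg, Il1r2, Il10ra, Il7r, Il17ra, Il16, Il21r and Il3ra, and the lower ones Il20rb, Il1f8, Il4i1 and Il17re. Il2rg, Il10ra, Il7r and Il21r of the first set are receptor chains known from leukocytes. Of the called genes, Il10ra, Il1r2, Il21r and Il4i1 passed the filter through E2 libraries alone and Il7r through KO E2 libraries alone. The filter thus favoured their calls and the counts and median that hold them. Neutrophil markers were called higher at 6 of 10 genes, T cell markers at 4 of 5 and macrophage markers at 1 of 9 (Csf1r), with Cd14 (-0.26) and Itgam (-0.35) below 0, and the summed macrophage markers ran from 916 to 3249 FPKM in KO E2 and from 248 to 763 FPKM in WT E2. Summed epithelial markers ran from 104 to 710.4 FPKM in KO E2 and from 667 to 1084 FPKM in WT E2, with Cdh1, E-cadherin, the 1 of 8 that was called (-2.29 ± 0.64, adjusted p = 0.0391). Uterine markers were called lower at 3 of 7 genes, Esr1 (-1.54 ± 0.33), Pgr (-2.05 ± 0.41) and Msx1 (-2.38 ± 0.68). Summed adipocyte markers stood at 428, 4.91 and 2313 FPKM in KO E2 and at 4.83, 45.3 and 2.72 FPKM in WT E2, so KO E2 replicates 1 and 3 stood apart. The part of these markers in the results was not tested.

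Il1b averaged 79.4 ± 72.8 FPKM in KO E2 and 12.1 ± 9.56 FPKM in WT E2 libraries (SD, n = 3 each), a log2 difference of 2.51 ± 0.59 (adjusted p = 0.0158). The lowest KO E2 library, at 32.1 FPKM, was above the highest WT E2 library, at 22.8 FPKM. Il1r2 averaged 7.89 ± 8.79 FPKM in KO E2 and 0.871 ± 0.254 FPKM in WT E2 (1.79 ± 0.43, adjusted p = 0.019). Il2rg averaged 14.2 ± 4.79 FPKM in KO E2 and 2.69 ± 2.42 FPKM in WT E2 (2.21 ± 0.38, adjusted p = 0.00272), and Il10ra 6.29 ± 1.86 FPKM and 1.47 ± 0.951 FPKM in the same order (1.60 ± 0.27, adjusted p = 0.00272). For each of these 4 genes the libraries of the groups did not overlap. Il17ra, with 1.06 ± 0.20 (adjusted p = 0.00514), was also apart. Il7r averaged 3.55 ± 3.66 FPKM in KO E2 and 0.337 ± 0.272 FPKM in WT E2 (adjusted p = 0.026 with no filter). Il16 differed by 1.06 ± 0.26 (adjusted p = 0.0224), Il21r by 1.03 ± 0.26 (adjusted p = 0.024) and Il3ra by 0.55 ± 0.16 (adjusted p = 0.0468). The libraries of Il21r and Il3ra overlapped between groups. Il10ra, Il1r2 and Il21r passed the filter through E2 libraries alone. With no filter their adjusted p was 0.00555, 0.0346 and 0.0372.

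Il20rb averaged 1.35 ± 0.861 FPKM in KO E2 and 10.4 ± 3.87 FPKM in WT E2 libraries and had the smallest adjusted p of the 40 genes (-2.29 ± 0.29, adjusted p = 0.000422). Il1f8 averaged 0.371 ± 0.559 FPKM in KO E2 and 3.53 ± 1.7 FPKM in WT E2 (-1.71 ± 0.43, adjusted p = 0.0237). Il17re averaged 1.76 ± 0.993 FPKM in KO E2 and 4.8 ± 0.379 FPKM in WT E2 (-1.15 ± 0.28, adjusted p = 0.0217). These 3 are genes that epithelia are known to express, and their libraries were apart. Il4i1 was listed at 0 in KO E2 replicate 1, with 0, 2.32 and 0.331 FPKM in KO E2 against 2.24, 4.11 and 3.27 FPKM in WT E2. The difference was -1.33 ± 0.32 (adjusted p = 0.0194, and 0.0323 with no filter). Further members missed the threshold, among them Il1rn (1.60 ± 0.51, adjusted p = 0.0658), Il33 (1.52 ± 0.56, adjusted p = 0.111), Il1a (1.22 ± 0.71, adjusted p = 0.343) and Il6st (-0.88 ± 0.33, adjusted p = 0.116).

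**Figure D4:**
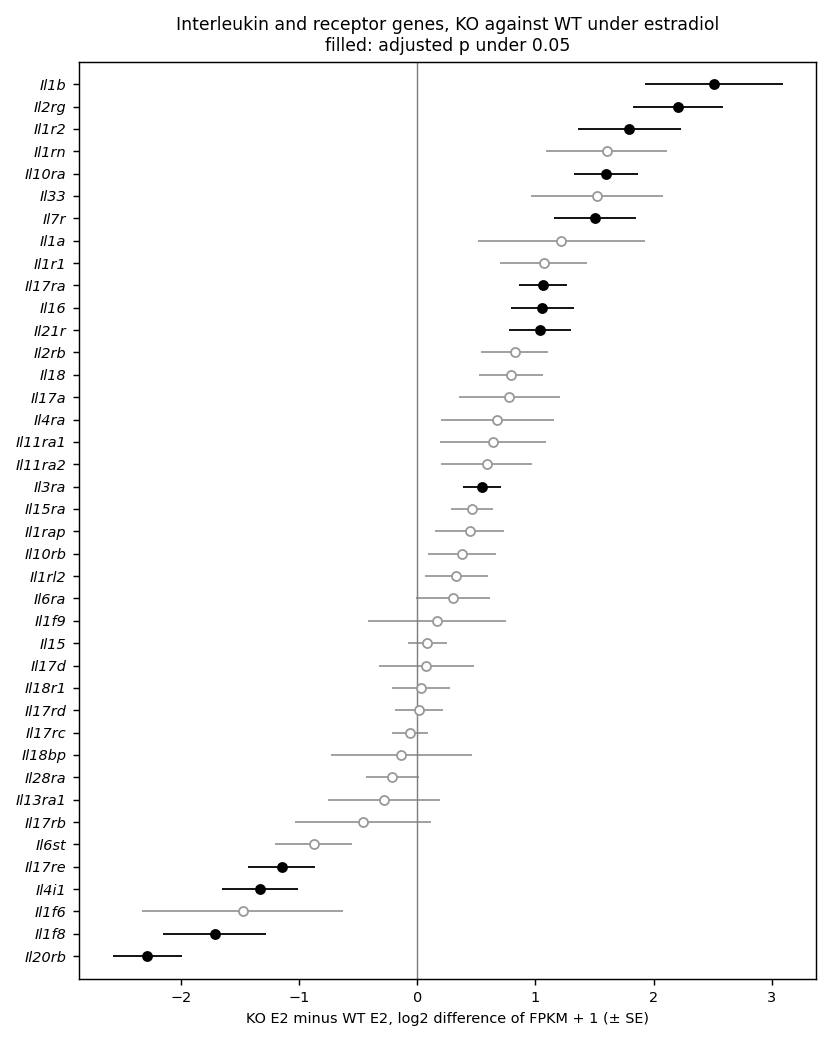
Log2 difference of FPKM + 1 between KO E2 and WT E2 libraries with its SE, for the 40 tested genes in order of size. Filled points passed the adjusted threshold, 9 above 0 led by Il1b at 2.51 and 4 below 0 led by Il20rb at -2.29.

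When the 6 libraries were left out one by one, Il10ra, Il17ra, Il20rb and Il2rg were the genes that stayed called each time. Without WT E2 replicate 1 or 5 the calls of Il1b, Il1r2, Il7r, Il16, Il17re, Il1f8, Il21r and Il3ra ended, with adjusted p up to 0.084, 0.0761, 0.0722, 0.103, 0.117, 0.107, 0.118 and 0.238 over all the libraries that ended them. Removal of KO E2 replicate 1 also ended Il1b, Il16, Il17re, Il1f8 and Il3ra, that of KO E2 replicate 3 also ended Il16, Il1f8 and Il21r, and that of KO E2 replicate 2 ended Il3ra. Il4i1 lost its call without WT E2 replicate 2 or 5 or KO E2 replicate 1 or 3 (up to 0.107). The count was 5 without WT E2 replicate 1 or 5, 7 without KO E2 replicate 1 and 17 without KO E2 replicate 2. With a pseudocount of 0.1 the calls of Il10ra, Il1b, Il16, Il21r, Il3ra and Il4i1 ended and the count was 7. Within batch 4, with 2 libraries a group, and within batch 3, with 1 a group, the differences were 2.93 and 1.67 for Il1b, 1.88 and 2.85 for Il2rg, 1.35 and 2.09 for Il10ra and -2.19 and -2.47 for Il20rb. All 13 called genes kept their direction in both batches, but 0 were called within batch 4 and 1, Il20rb, within batch 3.

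The response to estradiol was then compared between genotypes as a difference of differences, which shares its libraries with the comparisons above. It was called for 9 of 40 genes, 5 higher and 4 lower in KO, where 11.0% of all genes were called, 4.05% higher and 6.95% lower, with a member median of 0.46 against -0.14 over all genes. Il2rg led the higher genes (2.67 ± 0.53, adjusted p = 0.00909), and Il7r (1.66), Il10ra (1.62), Il16 (1.52) and Il17ra (1.35) followed. Il20rb led the lower genes (-2.37 ± 0.41, adjusted p = 0.00484), with Il17re (-2.05), Il1f8 (-2.03) and Il28ra (-1.31). The estradiol difference of Il17re was below 0 and called in KO, and above 0 and not called in WT. Il1b did not pass (1.99 ± 0.83, adjusted p = 0.133), nor did Il1r2 (1.67 ± 0.61, adjusted p = 0.0908). Il17ra, Il17re, Il20rb and Il2rg kept the call without each of the 12 libraries. With no filter the adjusted p was 0.0316 for Il10ra and 0.0634 for Il7r, which ended the call of Il7r. Il10ra lost it without WT E2 replicate 1, WT ovx replicate 1 or KO ovx replicate 4 (adjusted p up to 0.055), Il16 without those or KO E2 replicate 1 (up to 0.0628), and Il28ra without WT ovx replicate 1 or KO E2 replicate 1 (up to 0.053). Il7r lost it without WT E2 replicate 1 or 5 or any of the 6 ovx libraries (up to 0.0963), and Il1f8 without any but WT E2 replicate 2 and KO E2 replicate 2 (up to 0.117). The count ran from 4 without WT ovx replicate 1 to 13 without KO E2 replicate 2, and was 5 without WT E2 replicate 1 or KO ovx replicate 4.

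**Figure D5:**
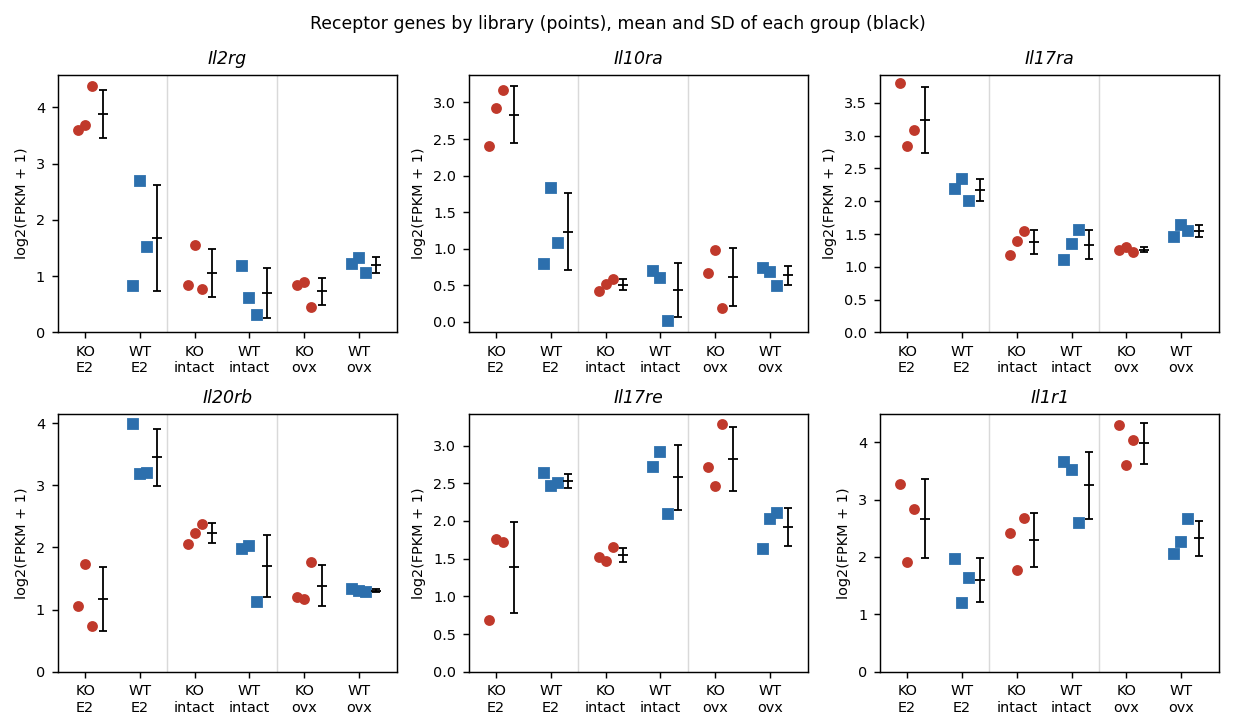
Level of 6 receptor genes in each library, as log2(FPKM + 1), for KO (red circles) and WT (blue squares) in the E2, intact and ovx states, with the mean and SD of each group in black. The KO E2 libraries are the highest for Il2rg, Il10ra and Il17ra, the WT E2 libraries are the highest for Il20rb, and the highest value of Il1r1 (18.7 FPKM) is that of KO ovx replicate 1.

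Without hormone, KO and WT differed at 2 of 40 genes, both higher in KO, where 5.42% of all genes were called, 4.63% higher and 0.791% lower. Il1r1 averaged 15.1 ± 3.82 FPKM in KO ovx and 4.08 ± 1.09 FPKM in WT ovx libraries (SD, n = 3 each) with no overlap (1.66 ± 0.37, adjusted p = 0.0192). Il28ra averaged 2.65 ± 0.288 FPKM in KO ovx and 0.7 ± 0.0135 FPKM in WT ovx (1.10 ± 0.22, adjusted p = 0.0125), with 3 libraries of each group close together. Interferon λ receptors are known from epithelium, and Cldn4 was the 1 of 8 epithelial markers called, also higher (2.16 ± 0.55), with summed markers of 153 to 512 FPKM in KO ovx and 52.3 to 109.7 FPKM in WT ovx. Its part was not tested. Casp1 and Pycard of the inflammasome were higher as well (1.40 ± 0.30 and 1.20 ± 0.30). Without WT ovx replicate 1 both interleukin receptor calls ended, at adjusted p up to 0.11 for Il1r1 over the libraries that ended it, which also included WT ovx replicate 2 and KO ovx replicates 1 and 4, and at 0.0667 for Il28ra. Batch 3 alone held ovx libraries of KO and of WT, and there the differences were 1.63 for Il1r1 and 1.10 for Il28ra, of which Il28ra was called.

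With ovaries in place, 1 of 40 genes differed between KO and WT, where 2.18% of all genes were called, 1.19% higher and 0.993% lower. That gene was Il1f8, which averaged 0.138 ± 0.113 FPKM in KO intact and 4.21 ± 3.82 FPKM in WT intact libraries (-1.93 ± 0.43, adjusted p = 0.0366). Removal of any KO intact library, or of WT intact replicate 4, ended the call (adjusted p up to 0.149). In the same comparison 3 of 6 blood endothelial and 3 of 4 lymphatic endothelial markers were called higher in KO intact libraries, a shift whose part was not tested. Casp1 (-1.32 ± 0.30) and Pycard (-1.23 ± 0.30) were lower, unlike in the ovx state. The differences of Il1f8 within batches 1 and 2 were -1.90 and -1.99. Il1rn was at 0.392, 5.96 and 3.73 FPKM in KO intact and 0.235, 0.0802 and 0.0614 FPKM in WT intact libraries, apart but short of the threshold (1.67 ± 0.51, adjusted p = 0.0983). Il17d, at 4.22, 5.29 and 2.1 FPKM in KO and 0.945, 1.24 and 0.196 FPKM in WT, also missed it (1.43 ± 0.40, adjusted p = 0.079). Averaged over the 3 states, Il1rn was higher (1.20 ± 0.29, adjusted p = 0.0292) and Il1f8 lower in KO (-1.11 ± 0.25, adjusted p = 0.0195), where 5.90% of all genes were called, 4.17% higher and 1.73% lower. The call of Il1f8 held without each of the 18 libraries. That of Il1rn ended without WT E2 replicate 1, any WT ovx library, KO E2 replicate 1 or KO intact replicate 3 or 4 (up to 0.0618), and the count ran from 1 to 9, with 9 reached without KO E2 replicate 2.

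Intact mice were compared with ovariectomized mice in each genotype, a comparison in which ovaries and batch cannot be told apart. In KO 1 gene was higher and 5 lower, where 15.9% of all genes were called, 7.14% higher and 8.74% lower. In WT 5 were higher and 5 lower, where 45.3% were called, 29.9% higher and 15.4% lower. Il3ra was lower in intact libraries of both genotypes (-1.17 ± 0.16 in KO, adjusted p = 0.000208, and -1.05 ± 0.16 in WT, adjusted p = 0.000248), and so was Il17rc (-1.08 ± 0.15 in KO, adjusted p = 0.000276, and -1.06 ± 0.15 in WT, adjusted p = 0.00018). Il15ra was lower in both too (-0.62 ± 0.18 in KO and -0.60 ± 0.18 in WT). In KO, Il1r1 (-1.69 ± 0.37, adjusted p = 0.00626) and Il17re (-1.28 ± 0.28, adjusted p = 0.00741) were lower and Il33 was higher (2.14 ± 0.56, adjusted p = 0.0181). In WT, Il1f8 (2.03 ± 0.43, adjusted p = 0.00211), Il13ra1 (1.99 ± 0.48), Il18r1 (1.24 ± 0.25), Il18 (1.10 ± 0.27) and Il10rb (0.94 ± 0.29) were higher, and Il17d (-1.36 ± 0.40) and Il11ra2 (-1.20 ± 0.39) were lower. Il18r1, the IL-18 receptor, was at 2.58, 5.12 and 2.28 FPKM in WT intact and 0.603, 0.602 and 1.13 FPKM in WT ovx libraries, and Il18 itself at 2.24, 6.82 and 3.05 FPKM and 0.917, 1.5 and 1.15 FPKM in the same order.

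The genotypes differed in this contrast at 2 of 40 genes, where 4.63% of all genes were called, 1.02% higher and 3.60% lower. Il1r1 had -2.62 ± 0.52 (adjusted p = 0.016), with 4.05 ± 1.52 FPKM in KO intact and 15.1 ± 3.82 FPKM in KO ovx libraries, and 9.01 ± 3.53 FPKM in WT intact and 4.08 ± 1.09 FPKM in WT ovx libraries. Il17re had -1.94 ± 0.40 (adjusted p = 0.0186), with 1.93 ± 0.187 FPKM in KO intact and 6.3 ± 2.22 FPKM in KO ovx, and 5.15 ± 1.69 FPKM in WT intact and 2.82 ± 0.64 FPKM in WT ovx libraries. Both genes were lower in KO intact than in KO ovx libraries, and their WT intact libraries overlapped the WT ovx libraries with means that were higher but not called. Neither call held without each library: both ended without WT ovx replicate 1, and Il17re also without KO intact replicate 3 (adjusted p up to 0.0569 and 0.0664). The calls within genotypes that ended without a library were those of Il33 (KO ovx replicate 1 or 2 or KO intact replicate 1, adjusted p up to 0.0802) and Il15ra in KO (KO ovx replicate 1 or 2 or KO intact replicate 3 or 4, up to 0.105). In WT they were Il10rb (WT ovx replicate 1 or WT intact replicate 4, up to 0.0862), Il11ra2 (those or WT ovx replicate 2, up to 0.11), Il17d (WT ovx replicate 2 or WT intact replicate 4, up to 0.067) and Il15ra (WT ovx replicate 3, 0.0533).

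The 45 genes below the filter were read as levels only. Of these, 24 had their highest group mean in KO E2 libraries, where 27.1% of all 10154 genes with some signal below the filter did. Il6, whose promoter is shown above, was at 8.66, 0.915 and 0.286 FPKM in KO E2 and 0.14, 0.895 and 0.265 FPKM in WT E2 libraries, so that a single library carried its only value over 1 FPKM. Il10, which restrains inflammation, was at 3.64, 0.282 and 1 FPKM in KO E2 and 0.404, 0.555 and 0.166 FPKM in WT E2. KO E2 replicate 1 was the highest of all 18 libraries for both. Il1rl1, the IL-33 receptor, was at 5.4, 0.188 and 0.224 FPKM in KO E2, again led by replicate 1, and at 0.0324, 0.0884 and 0.00527 FPKM in WT E2. Il23a, a subunit of IL-23, was at 1.16, 1.36 and 0.202 FPKM in KO E2 and 0.53, 0.502 and 0.966 FPKM in WT E2, and Il12a at 0.597, 0.4 and 0.456 FPKM in KO E2 and 0.0442, 0.0476 and 0.0247 FPKM in WT E2. Il17c, the ligand of Il17re, was at 0.11, 1.76 and 0.0351 FPKM in KO E2 and 0.33, 0.777 and 2.88 FPKM in WT E2. The T cell cytokines Il2, Il4, Il5, Il9, Il13, Il21, Il22 and Il31 did not exceed 0.338 FPKM in any library, and Il34, a ligand of the macrophage receptor CSF1R, reached 1.14 FPKM in KO E2 replicate 3.

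Members that lie together in the genome did not all move together. In the coordinates of the table, which names no genome build, a cluster on chromosome 1 from 40133072 to 40606148 holds Il1r2, Il1r1, Il1rl2, Il1rl1, Il18r1 and Il18rap. Within it Il1r2 rose and Il1r1 fell under estradiol in KO. A cluster on chromosome 2 from 24008691 to 24207011 holds Il1f8, Il1f9, Il1f6, Il1f5, Il1f10 and Il1rn, of which Il1f9, Il1f6 and Il1rn rose in both genotypes and Il1f8 only in WT, where the difference between genotypes was itself called. Il1f5 and Il1f10 did not exceed 0.167 FPKM. Il1a and Il1b lie at 129123105 to 129201469 on the same chromosome and rose together, and Il17re and Il17rc lie at 113408477 to 113443332 on chromosome 6. Il1b overlaps the predicted gene Gm14047 and Il2rg overlaps LOC100503548 in the table, and it is not stated whether reads were counted by strand.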

How the data were processed

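The deposited table holds FPKM values for 25791 genes in 18 libraries, which the authors made with Cufflinks 2.0.2 and Cuffdiff, per the submitters' processing notes. RNA was prepared as stranded, single-end libraries, per the labels' protocols. Aligner, annotation, genome build and read depth are not given in the sources used here, so no counting intervals can be given. The table's positions are from another build than GRCm38.

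Genes with at least 1 FPKM in at least 3 libraries (13898) were tested on log2(FPKM + 1) with limma 3.58.1 (R 4.3.3), group means over 6 groups, a mean-variance trend and Benjamini-Hochberg adjustment at 0.05, in 10 contrasts. The procedure was tested on simulated data. Members and lists were chosen with earlier results of these data known. Called genes are named with their difference or adjusted p, and genes with a group mean of at least 5 FPKM with library values. Some called genes under that level, such as Il16, are given without library values. The neutrophil sum without Ltf was made after its values were seen. Batches were rebuilt from the values, since the labels name none. Among genes at most 0.05 FPKM but above 0 in both of a pair of libraries, the share with a common ratio, within a window of 0.02 (log2), was taken at its maximum. Libraries were grouped by these shares into 4 sets, a number that was chosen. A higher share within a batch thus follows from the sorting and is no test of it. The median share was 7.33% (3.56% to 19.65%) within a batch and 2.91% (1.78% to 3.98%) between batches of like ovarian state. It was 1.47% between intact and ovariectomized libraries. Alternatives were median-ratio scaling, quantile normalization, a pseudocount of 0.1, no filter, a replicate block, a batch term, single batches and each library left out. Motifs were searched with Python 3.11.15. A result for 1 gene of the signalling lists is not reported here.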

Additional observations from a re-analysis of the deposited data

Results flagged for a closer look

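The test of the difference between genotypes in the response to estradiol drew attention to 9 of 40 genes. Of all genes tested 11.0% were called, 4.05% higher and 6.95% lower. The log2 difference of responses, KO minus WT, was 2.67 for Il2rg, 1.66 for Il7r, 1.62 for Il10ra, 1.52 for Il16 and 1.35 for Il17ra. It was -2.37 for Il20rb, -2.05 for Il17re, -2.03 for Il1f8 and -1.31 for Il28ra. Il10ra passed the filter through E2 libraries alone and Il7r through KO E2 libraries alone. With no filter the limma call of Il7r ended (adjusted p = 0.0634). When 12 libraries were left out one by one, the call of Il1f8 ended for 10 of them. Il2rg, Il7r and Il10ra of the first set are receptor chains known from leukocytes. The response was also larger in KO at 6 of 10 neutrophil and 2 of 5 T cell markers. Il20rb, Il17re, Il1f8 and Il28ra of the second set are known from epithelium, and the response was smaller in KO at 5 of 8 epithelial markers. The part of either marker list was not tested.

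The same test on the presence of ovaries drew attention to Il1r1 (-2.62) and Il17re (-1.94), in a contrast where ovaries and batch cannot be told apart. With 3 libraries a group, no formal test for outlying values was run.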

How the results depend on the processing

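No call reversed its direction under any alternative: of 1261 values for 91 calls, 990 kept the call and 271 lost it. Of the 91 calls, 87 were kept under median-ratio scaling, 87 under quantile normalization, 82 with a pseudocount of 0.1, 81 with no filter and 64 with a replicate block, and 64 of 75 with a batch term. The number of members called between KO and WT with ovaries, 1, was 2 under quantile normalization, 0 with no filter, 2 with the replicate block, 0 with the batch term, and 0 within batch 1 and 0 within batch 2. Without hormone, 2 became 4 under quantile normalization, 1 with the batch term and 1 within batch 3. Under estradiol, 13 became 7 with a pseudocount of 0.1, 3 with the replicate block, 1 within batch 3 and 0 within batch 4. Over the mean of the states, 2 became 4 under median-ratio scaling. The estradiol count in KO, 27, was 12 within batch 3, and that in WT, 19, was 4 within batch 4. The 9 genotype differences in estradiol response became 0 with the replicate block, and the 2 in ovary response became 4 under quantile normalization and 1 with the block. The cause was not tested.

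Leaving out each library in turn gave 0 to 1 between KO and WT with ovaries, 0 to 2 without hormone, 5 to 17 under estradiol and 1 to 9 over the mean. It gave 18 to 23 for estradiol in KO, 16 to 20 in WT, 4 to 8 for ovaries in KO, 8 to 14 in WT, 4 to 13 for the difference in estradiol response and 0 to 3 for that in ovary response. The Tsc2 difference ran from -0.21 to -0.15. Replicate numbers did not pair the samples: groups compared shared at most 2 numbers, and deviations of same-numbered samples correlated at -0.181 to 0.339. The median over all genes shifted under median-ratio scaling by -0.22 for estradiol in WT, -0.23 for ovaries in WT, 0.18 for the difference in estradiol response, 0.12 for that in ovary response and -0.10 for KO and WT without hormone. Depth is unknown, so a gene listed at 0 may lie below detection.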
